A study of Mus musculus with 12 samples.

Results

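Trp53, the gene of the transcription factor p53, and 9 of its target genes were followed in mouse neocortex with 2 or 1 intact copies of Chd8. The 10 genes were taken by symbol from the 46603 Ensembl genes that both count tables list, and each symbol matched 1 identifier. They are Trp53, Cdkn1a, Mdm2, Bax, Bbc3, Pmaip1, Ccng1, Sesn2, Phlda3 and Zmat3, and the rule takes them by symbol and uses no measured value, although earlier results of these data were known. Chd8 encodes a chromatin remodeller that has been proposed to repress p53, so the comparison asks whether p53 or its targets differ when 1 allele of Chd8 is lost.

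RNA-seq was carried out on dissected neocortex at embryonic day 12.5 (E12.5, both hemispheres) and postnatal day 5 (P5, 1 hemisphere). At each stage 3 libraries came from wildtype mice (Chd8+/+) and 3 from heterozygous mice (Chd8+/-), all on a C57Bl/6J background, which makes 12 libraries. The Chd8+/- line carries a germline null allele, made by β-actin Cre deletion of a floxed exon and then bred free of the Cre, so 1 copy of Chd8 is missing in every cell type and not in neurons alone. The floxed allele was made in ES cells, and the Chd8+/- line was bred by crossing to C57BL/6J mice. The labels name no treatment in any group. The labels do not say whether the 3 libraries of a group came from separate animals or litters, so the p-values measure only the spread between these samples.

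p53 is held low in unstressed cells by the ubiquitin ligase Mdm2, whose gene p53 itself switches on, which closes a negative feedback loop. DNA damage, oncogene activity or ribosomal stress free p53 from Mdm2, mostly by changing the protein and not its mRNA, and p53 then binds DNA as a tetramer and activates genes that stop the cell cycle, adjust metabolism or trigger apoptosis. In the embryonic brain, excess p53 activity is known to kill neural progenitors and to reduce cortex size, so target mRNAs are often read as a measure of p53 activity in this tissue.

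The promoter sequences below show where letters that match the p53 consensus lie in the promoters that could be searched. Promoters of 300 bases (250 before to 50 after the start) came from RefSeq on GRCm38.p6, in which 8 of the 10 genes had entries, with 11 promoters, and Pmaip1 and Zmat3 had none. The motif searched was the consensus p53 decamer, a palindrome of 10 bases with 3 purines, a core of C, A or T, A or T and G, and 3 pyrimidines, so 1 search covers both strands. Capitals mark an exact decamer or a partner decamer in a pair with at most 1 mismatch in all and a spacer of at most 13 bases. Each window is 60 bases long, is written 5′ to 3′ on the strand of its gene and lies before the start site.
Cdkn1a: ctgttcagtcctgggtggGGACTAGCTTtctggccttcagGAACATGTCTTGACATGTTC
Bax: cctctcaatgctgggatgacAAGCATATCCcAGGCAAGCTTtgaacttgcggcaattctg
Ccng1: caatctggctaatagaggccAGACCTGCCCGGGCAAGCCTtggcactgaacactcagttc
Mdm2: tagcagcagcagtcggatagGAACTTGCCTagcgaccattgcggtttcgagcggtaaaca
Trp53: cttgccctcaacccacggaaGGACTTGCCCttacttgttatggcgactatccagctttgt
The windows lie at chr17:29090888-29090947 on the plus strand for Cdkn1a, chr7:45467071-45467130 on the minus strand for Bax, chr11:40755442-40755501 on the minus strand for Ccng1, chr10:117710905-117710964 on the minus strand for Mdm2 and chr11:69580264-69580323 on the plus strand for Trp53.

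An exact decamer was found in 5 of the 11 promoters, each of a different gene, and a pair in 3 of the 11. The Cdkn1a window held a pair with 0 mismatches and a spacer of 12 bases, next to a further decamer that pairs with 1 mismatch, the Bax window a pair with 1 mismatch and a spacer of 1 base, and the Ccng1 window a pair with 1 mismatch and a spacer of 0. Mdm2 and Trp53 held a single decamer each. None was found in the 3 Bbc3 promoters, the Sesn2 and Phlda3 promoters or a second Cdkn1a promoter. Among all 32851 promoters of this length, 8.36% held an exact decamer and 1.09% such a pair. A match describes the letters and is not a measured binding site.

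On GRCm38, in the coordinates of the count tables, Trp53 (ENSMUSG00000059552) at chr11:69580359-69591873, Cdkn1a (ENSMUSG00000023067) at chr17:29090979-29100722 and Bbc3 (ENSMUSG00000002083) at chr7:16309616-16318205 lie on the plus strand. Mdm2 (ENSMUSG00000020184) at chr10:117688888-117710758 and Bax (ENSMUSG00000003873) at chr7:45461695-45466898 lie on the minus strand. Values below count reads over all exons of a gene.

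Libraries held 38774591 to 54695236 counts on genes. Levels below are CPM, read counts scaled to a common library total after TMM scaling, a correction for differences in RNA composition between libraries. Chd8 itself, which checks the genotype labels, stood at 233.5, 228.6 and 235.5 CPM in E12.5 Chd8+/+ and at 162, 167 and 161 CPM in E12.5 Chd8+/-, and at 150.6, 151.0 and 145 CPM in P5 Chd8+/+ against 95.7, 98.6 and 95.01 CPM in P5 Chd8+/-. It fell by 0.51 (log2, SE 0.04, adjusted p = 0.00562) and by 0.61 (SE 0.03, adjusted p = 7.21e-05) in edgeR's quasi-likelihood test, although the E12.5 call was lost without Chd8+/+ replicate 3 (adjusted p = 0.141), Chd8+/- replicate 1 (0.124) or Chd8+/- replicate 3 (0.122), with the difference at -0.50 in each case. Neocortex markers (Emx1, Emx2, Lhx2, Neurod6 and Tbr1) summed to 722 to 992 CPM at E12.5 and 443 to 496 CPM at P5, and none of the 5 was at 0 in every library. GABAergic interneuron markers (Gad1, Gad2, Dlx1, Dlx2, Lhx6 and Sst) summed to 498 to 613 CPM at E12.5 and 477 to 583 CPM at P5. Their source within the dissected tissue was not tested. At P5, Chd8+/- replicate 3 stood apart, with Lars2 at 6255 CPM against 659 to 995 CPM in the other P5 libraries. In each group 1 library had Xist above 100 CPM. The E12.5 and P5 libraries came from separate sequencing runs and from different numbers of hemispheres, so stage, run and hemispheres cannot be told apart.

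All 10 genes were detected in every library and passed the filter on low counts in every comparison. To compare levels between genes, CPM were divided by exon length in kilobases (RPKM). Bax, which permeabilises the outer mitochondrial membrane, was highest in all 4 groups, with a mean of 63.5 RPKM in E12.5 Chd8+/+ and 59.4 RPKM in P5 Chd8+/+, and made up 51.3% and 44.5% of the summed RPKM of the 9 targets in these groups. Pmaip1, which encodes the BH3-only protein Noxa, was lowest in all 4 groups, at 1.39 RPKM in E12.5 Chd8+/+ and 0.553 RPKM in P5 Chd8+/+. The genes between them changed places with stage.

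In E12.5 Chd8+/+ the order by RPKM ran from Bax through Trp53 (36.1), Mdm2 (17.4), Ccng1 (14.7), Cdkn1a (9.58), Zmat3 (7.21), Sesn2 (3.97), Bbc3 (3.05) and Phlda3 (2.92) to Pmaip1. Only the neighbours Bbc3 and Phlda3 overlapped between libraries of this group, and E12.5 Chd8+/- gave the same order. In P5 Chd8+/+ it ran from Bax through Cdkn1a (17.2), Ccng1 (16.8), Bbc3 (14.9), Trp53 (8.07), Phlda3 (7.90), Zmat3 (6.62), Mdm2 (6.32) and Sesn2 (3.84) to Pmaip1. Here the libraries overlapped between Cdkn1a and Ccng1, between Trp53 and Phlda3, and between Zmat3 and Mdm2. Trp53 thus went from place 2 at E12.5 to place 5 at P5, and Cdkn1a, which encodes the cyclin-dependent kinase inhibitor p21, from place 5 to place 2. In P5 Chd8+/- Phlda3 (8.17 RPKM) stood above Trp53 (7.32 RPKM), the other members keeping the order of P5 Chd8+/+.

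**Figure D1:**
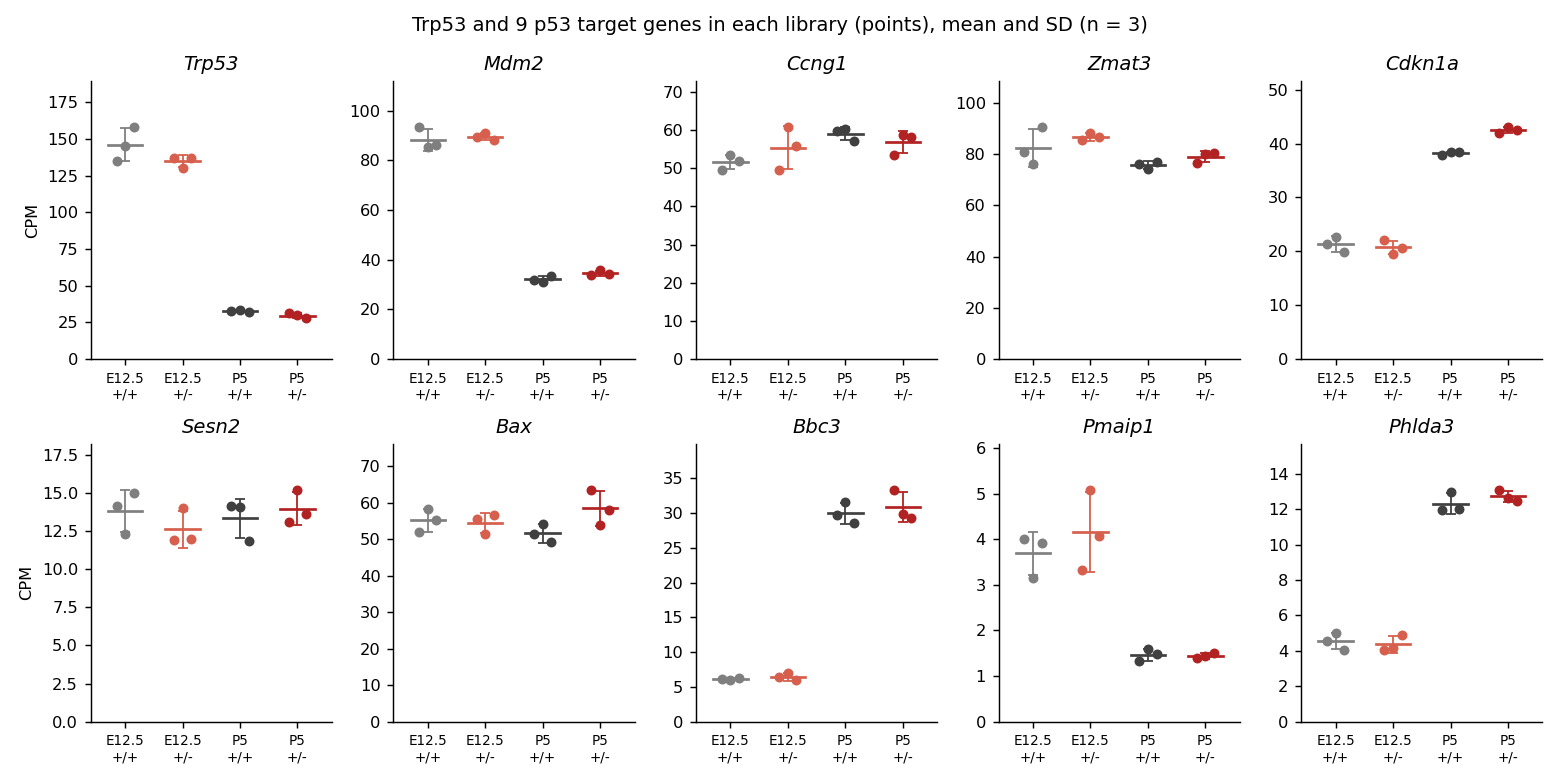
Level of each of the 10 genes in CPM, on a linear axis that starts at 0, in the 3 libraries of each stage and genotype. Points are libraries, long lines group means and bars 1 SD (n = 3). Trp53, Mdm2 and Pmaip1 sit lower at P5 and Cdkn1a, Bbc3 and Phlda3 higher in both genotypes, while the genotypes lie close together within a stage.

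The clearest differences among the 10 genes lay between stages. From E12.5 to P5 in Chd8+/+ cortex Trp53 fell 4.47-fold, Mdm2 2.75-fold and Pmaip1 2.53-fold, while Bbc3 rose 4.88-fold, Phlda3 2.71-fold and Cdkn1a 1.80-fold. In all, 8 of the 10 passed the test at an adjusted p of 0.05, 4 higher and 4 lower at P5, where 83.1% of the 19676 genes tested passed, 41.4% higher and 41.7% lower. The count of members was therefore close to that for all genes, and their median log2 difference was -0.07, against -0.02 for all genes tested. In these tissue samples, fewer cells of a type and less RNA per cell cannot be told apart.

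Trp53 mRNA was at 135, 145 and 158 CPM in E12.5 Chd8+/+ and at 32.6, 33.1 and 32.2 CPM in P5 Chd8+/+. All E12.5 libraries lay above all P5 libraries, and the log2 difference was -2.16 (SE 0.06, adjusted p = 6.85e-14). In Chd8+/- the values were 137, 130.2 and 137 CPM at E12.5 and 31.2, 30.0 and 27.6 CPM at P5. The groups again did not overlap, with a log2 difference of -2.19 (adjusted p = 6.59e-14).

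Mdm2, the ubiquitin ligase that degrades p53, moved the same way. Its level was 93.3, 85.2 and 86.1 CPM in E12.5 Chd8+/+ and 31.9, 30.9 and 33.4 CPM in P5 Chd8+/+, with no overlap and a log2 difference of -1.46 (SE 0.05, adjusted p = 6.67e-13). In Chd8+/- it stood at 89.3, 91.0 and 88.3 CPM at E12.5 and at 33.9, 35.7 and 34.1 CPM at P5. These groups did not overlap either, and the log2 difference was -1.38 (adjusted p = 1.29e-12). The fall of Mdm2 was smaller than that of Trp53, so the ratio of Mdm2 to Trp53 in RPKM was higher at P5. It lay between 0.435 and 0.551 in E12.5 Chd8+/+ and between 0.744 and 0.827 in P5 Chd8+/+, and between 0.514 and 0.558 and between 0.866 and 0.983 in the 2 Chd8+/- groups.

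Ccng1 and Zmat3 moved little. Ccng1, which encodes cyclin G1, a partner of protein phosphatase 2A that acts on Mdm2, was at 49.6, 53.5 and 51.8 CPM in E12.5 Chd8+/+ and at 59.8, 60.3 and 57.1 CPM in P5 Chd8+/+. The groups did not overlap, and the log2 difference of 0.19 (SE 0.07, adjusted p = 0.0143) was called, but not without E12.5 Chd8+/+ replicate 1 (0.14, adjusted p = 0.0725). In Chd8+/- Ccng1 was at 49.5, 60.7 and 55.8 CPM at E12.5 and at 53.5, 58.8 and 58.3 CPM at P5. These groups overlapped, with a log2 difference of 0.04 (adjusted p = 0.604).

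Zmat3, an RNA-binding zinc finger protein, had the smallest difference of the 4 members called lower at P5. It stood at 80.7, 76.1 and 90.4 CPM in E12.5 Chd8+/+ and at 76.1, 74.1 and 77.1 CPM in P5 Chd8+/+, and these groups overlapped. The log2 difference was -0.12 (SE 0.05, adjusted p = 0.0450) in Chd8+/+ and -0.14 (adjusted p = 0.0263) in Chd8+/-. In Chd8+/- the values were 85.3, 88.3 and 86.8 CPM at E12.5 and 76.4, 80.0 and 80.2 CPM at P5, without overlap. Both calls were lost under RLE scaling (-0.08, adjusted p = 0.192, and -0.10, adjusted p = 0.119), upper quartile scaling, DESeq2 and a filter at 1 CPM, with the direction kept. The call in Chd8+/+ was also lost without any 1 of the P5 Chd8+/+ libraries, or replicate 3 of any of the other 3 groups, and it was weakest (log2 -0.05, adjusted p = 0.299) when replicate 3 of E12.5 Chd8+/+ was left out. The call in Chd8+/- was lost without any 1 of the E12.5 Chd8+/- libraries or P5 Chd8+/- replicate 1.

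Cdkn1a, the arrest gene of the list, rose with stage in both genotypes. It was at 21.3, 22.7 and 19.8 CPM in E12.5 Chd8+/+ and at 37.9, 38.4 and 38.4 CPM in P5 Chd8+/+, with a log2 difference of 0.85 (SE 0.06, adjusted p = 4.72e-09). In Chd8+/- it was at 22.01, 19.5 and 20.6 CPM at E12.5 and at 42.0, 43.0 and 42.5 CPM at P5, with a log2 difference of 1.04 (SE 0.06, adjusted p = 4.39e-10), which is 2.05-fold. The stages did not overlap in either genotype.

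Sesn2, a stress-induced inhibitor of mTORC1, was at 14.1, 12.3 and 14.97 CPM in E12.5 Chd8+/+ and at 14.1, 14.1 and 11.8 CPM in P5 Chd8+/+. The groups overlapped, and the difference was not called (log2 -0.05, 95% interval -0.26 to 0.16, adjusted p = 0.639). In Chd8+/- it was at 11.9, 14.02 and 11.98 CPM at E12.5 and at 13.1, 15.2 and 13.6 CPM at P5, again with overlap (log2 0.14, adjusted p = 0.185). Without E12.5 Chd8+/- replicate 2 this last difference was 0.22 and was called (adjusted p = 0.0493).

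The 4 apoptosis genes did not move together between stages. Bbc3, which encodes the BH3-only protein Puma, was at 6.17, 5.93 and 6.29 CPM in E12.5 Chd8+/+ and at 29.7, 31.6 and 28.6 CPM in P5 Chd8+/+, a log2 difference of 2.29 (SE 0.08, adjusted p = 6.83e-13). In Chd8+/- it was at 6.37, 7.05 and 5.93 CPM at E12.5 and at 33.3, 29.9 and 29.3 CPM at P5, a log2 difference of 2.26 (adjusted p = 8.15e-13). All P5 libraries lay above all E12.5 libraries, and Bbc3 was the member that rose most. Pmaip1, the other BH3-only gene, went the opposite way, at 4.01, 3.15 and 3.91 CPM in E12.5 Chd8+/+ and 1.32, 1.59 and 1.48 CPM in P5 Chd8+/+ (log2 -1.34, SE 0.16, adjusted p = 2.57e-06). In Chd8+/- its values were 3.32, 5.08 and 4.06 CPM at E12.5 and 1.39, 1.43 and 1.51 CPM at P5 (log2 -1.53, adjusted p = 6.78e-07). Neither genotype showed an overlap of stages for Pmaip1, although its levels were the lowest of the members.

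Phlda3, which blocks membrane recruitment of the survival kinase Akt, was at 4.57, 5.01 and 4.08 CPM in E12.5 Chd8+/+ and at 11.96, 12.98 and 12.03 CPM in P5 Chd8+/+. The stages did not overlap, and the log2 difference was 1.44 (SE 0.09, adjusted p = 1.71e-09). In Chd8+/- it was at 4.07, 4.14 and 4.93 CPM at E12.5 and at 13.1, 12.7 and 12.5 CPM at P5, also without overlap (log2 1.54, adjusted p = 8.68e-10). Bax, the effector that these BH3-only proteins help to activate, was at 52.0, 58.2 and 55.3 CPM in E12.5 Chd8+/+ and at 51.4, 54.3 and 49.2 CPM in P5 Chd8+/+. Its stages overlapped, and the difference was not called (log2 -0.10, 95% interval -0.24 to 0.05, adjusted p = 0.189). In Chd8+/- Bax was at 55.6, 51.4 and 56.6 CPM at E12.5 and at 63.5, 53.9 and 57.9 CPM at P5 (log2 0.10, adjusted p = 0.175). This difference was called under upper quartile scaling (0.16, adjusted p = 0.0327). It was 0.03 without P5 Chd8+/- replicate 1 and 0.15 without P5 Chd8+/- replicate 2. The Bax difference in Chd8+/+ was -0.16 without E12.5 Chd8+/+ replicate 1 and -0.06 without E12.5 Chd8+/+ replicate 2.

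**Figure D2:**
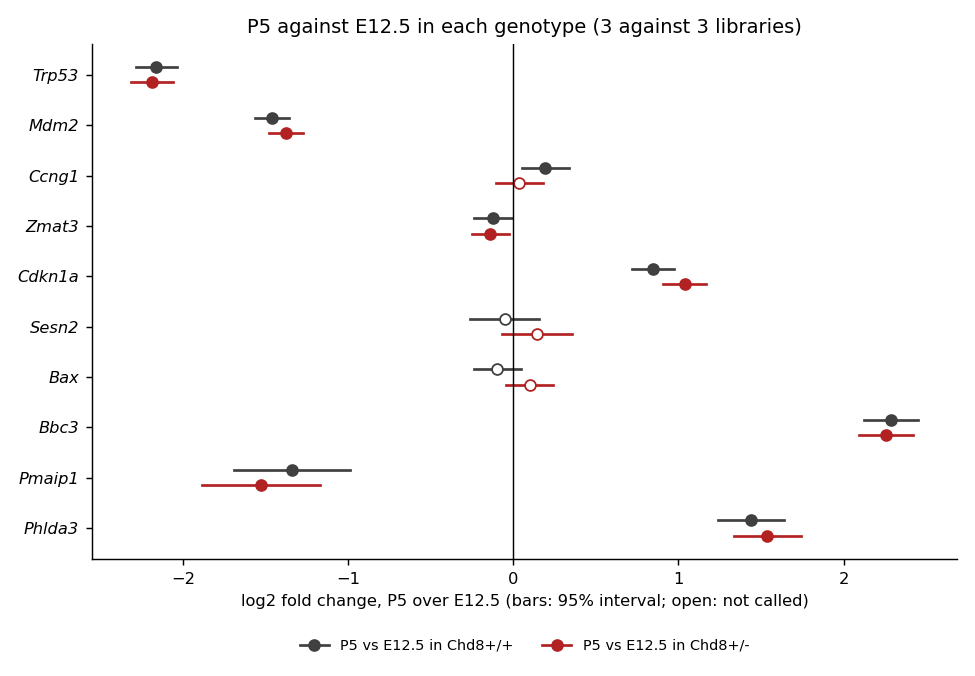
Log2 difference from E12.5 to P5 of each gene in Chd8+/+ and in Chd8+/-, as points with 95% intervals from edgeR, with 0 as no difference. Bbc3 lies highest at 2.29 and 2.26 and Trp53 lowest at -2.16 and -2.19 in Chd8+/+ and Chd8+/-, while Bax and Sesn2 lie near 0.

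In Chd8+/-, 7 of the 10 genes passed the test between stages, 3 higher and 4 lower, where 82.9% of all genes tested passed, 41.3% higher and 41.6% lower. Their median log2 difference was 0.07, against -0.00462 for all genes tested. DESeq2 called 7 of the 10 in Chd8+/+, against 65.2% of the genes it tested, and 6 of the 10 in Chd8+/-, against 63.2%, and in each case Zmat3 was the member that edgeR called and DESeq2 did not. The genes DESeq2 tested include low-count genes that edgeR's filter removed. Among the 19676 genes that passed this filter, as all members did, DESeq2 called 15713 in Chd8+/+ and 15620 in Chd8+/-. Groups did not overlap for 7 members in Chd8+/+, 4 higher and 3 lower, where 84.2% of all genes did not overlap, 41.8% higher and 42.4% lower.

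Per unit of Trp53 mRNA, target mRNA was higher at P5 than at E12.5 in every library for each ratio formed. Trp53 itself fell between the stages, so such a ratio rises for any gene that fell less, as Mdm2 did. It is therefore not a measure of p53 activity. The ratio of Cdkn1a to Trp53 in RPKM was 0.287, 0.285 and 0.228 in E12.5 Chd8+/+ and 2.12, 2.11 and 2.17 in P5 Chd8+/+. The ratio of Bbc3 to Trp53 was 0.0919, 0.0824 and 0.0803 in E12.5 Chd8+/+ and 1.83, 1.92 and 1.79 in P5 Chd8+/+. Over the 9 targets the summed level moved much less, from 120.6 to 126.8 RPKM in E12.5 Chd8+/+ to 129 to 138 RPKM in P5 Chd8+/+. In P5 Chd8+/- the ratios of Cdkn1a to Trp53 were 2.45, 2.61 and 2.80, those of Bbc3 to Trp53 were 2.15, 2.01 and 2.14, and the summed level was 140.0 to 149.8 RPKM. For all 3 of these measures the P5 Chd8+/- libraries lay above the P5 Chd8+/+ libraries, a description that rests on the same Trp53, Cdkn1a and Bax values as the genotype comparison. The levels of Bbc3 and Bax themselves overlapped between genotypes at P5, and 23.4% of all single genes did not overlap.

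**Figure D3:**
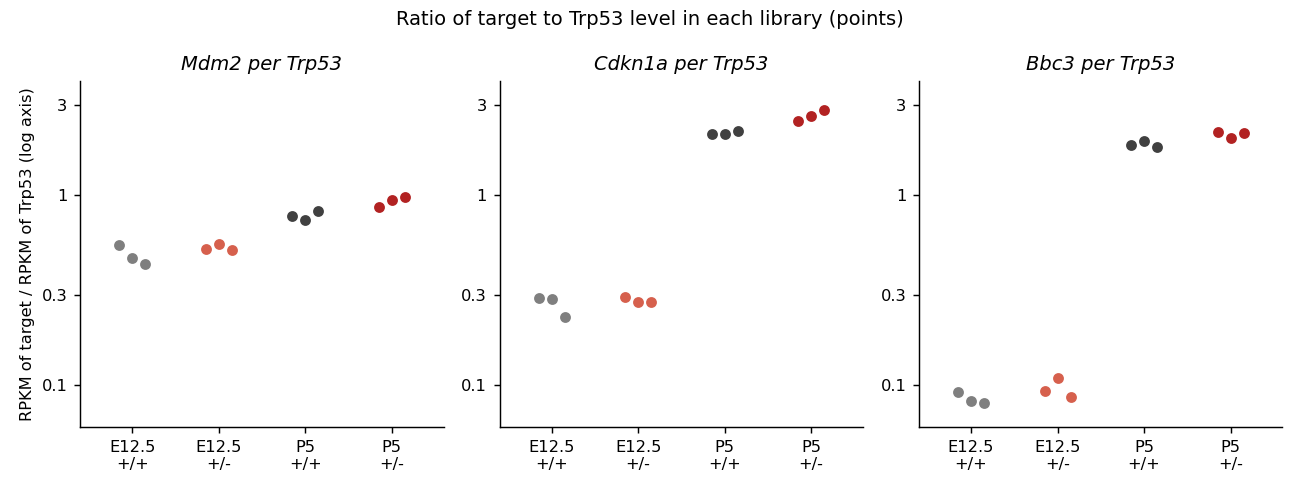
Ratios of Mdm2, Cdkn1a and Bbc3 to Trp53 in RPKM, on a log axis, by stage and genotype. Points are the 3 libraries of a group. The ratios are higher at P5 than at E12.5 in both genotypes, where Trp53 itself is lower at P5. The ratio of Mdm2 to Trp53 runs from 0.435 in E12.5 Chd8+/+ to 0.983 in P5 Chd8+/-.

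Markers of several cell types differed in summed level between stages beside these genes. Summed neural progenitor markers were 2429 to 2617 CPM at E12.5 and 198 to 228 CPM at P5. Summed markers of cortical excitatory neurons went from 279 to 407 CPM at E12.5 to 1851 to 1975 CPM at P5, those of astrocytes from 265 to 306 CPM to 959.8 to 1081 CPM, and those of erythrocytes from 2182 to 3015 CPM to 92.8 to 122 CPM. Summed levels were also higher at P5 for markers of striatal medium spiny neurons (8.28 to 11.1 CPM at E12.5, 143 to 218 CPM at P5), choroid plexus (43.8 to 102 CPM and 320.4 to 571.5 CPM), oligodendrocyte precursors (70.3 to 107 CPM and 364 to 397 CPM) and microglia (31.9 to 40.2 CPM and 105 to 139 CPM). None of these markers was at 0 in every library, and their part in the stage differences was not tested.

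At E12.5, loss of 1 Chd8 allele came with no called difference in Trp53 or any target. edgeR called 0 of the 10 genes, where 0.00553% of the 18081 genes tested were called, and 0 of the 10 had an unadjusted p under 0.05, against 5.15% of all genes. DESeq2 also called 0 of the 10, and 0.0374% of the genes it tested. The log2 differences ran from -0.13 for Sesn2 to 0.17 for Pmaip1, 5 above and 5 below 0, with a median of 0.00172 for the members and 0.000576 for all genes tested. The groups overlapped for all 10, whereas 11.4% of all genes did not overlap. The extremes rested on single libraries, since without Chd8+/- replicate 2 Pmaip1 was at 0.00686 and Sesn2 at -0.21, without Chd8+/- replicate 1 Pmaip1 was at 0.30, and without Chd8+/+ replicate 3 Sesn2 was at -0.07.

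Trp53 had the smallest p of the members at E12.5, with a mean of 146 ± 11.3 CPM (SD, n = 3) in Chd8+/+ and 135 ± 3.98 CPM (SD, n = 3) in Chd8+/-. The log2 difference in edgeR was -0.12 (SE 0.06, adjusted p = 0.942), with a 95% interval of -0.24 to 0.01, and it was -0.06 without Chd8+/+ replicate 3 and -0.17 without Chd8+/+ replicate 1. Mdm2 was at 88.2 ± 4.42 CPM in Chd8+/+ and 89.6 ± 1.37 CPM in Chd8+/- (log2 0.02), and Cdkn1a at 21.3 ± 1.47 and 20.7 ± 1.25 CPM (log2 -0.04). Bax stood at 55.2 ± 3.08 and 54.5 ± 2.74 CPM (log2 -0.02) and Bbc3 at 6.13 ± 0.184 and 6.45 ± 0.562 CPM (log2 0.07). These differences were within the spread of the 3 libraries per group, and the signs for Cdkn1a, Bax and Phlda3 turned positive without Chd8+/+ replicate 2. With single libraries left out, the difference ran from 0.00237 to 0.0591 for Mdm2 and from 0.00424 to 0.128 for Bbc3. Endothelial markers were the one list whose summed level did not overlap between genotypes at this stage (151 to 158 CPM in Chd8+/+, 137 to 149 CPM in Chd8+/-, 5 of 5 lower, none at 0), and their part in these values was not tested.

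At P5 no member passed the adjusted threshold in edgeR either, but 4 of the 10 had an unadjusted p under 0.05, 3 higher and 1 lower in Chd8+/-. edgeR called 0.00536% of the 18666 genes tested here, which is 1 gene, and 17.8% of all genes had an unadjusted p under 0.05, 8% higher and 9.77% lower. DESeq2 called 1 member, Bax, as higher, and 5.28% of the genes it tested, 1.71% higher, and it gave no adjusted p for Pmaip1. Groups did not overlap for 3 members, Cdkn1a and Mdm2 higher and Trp53 lower, where 23.4% of all genes did not overlap, 8.55% higher and 14.8% lower. Of the 10 log2 differences 8 were above 0, and their median was 0.07, against 0.00 for all genes tested.

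Cdkn1a had the smallest p of the members at P5, at 37.9, 38.4 and 38.4 CPM in Chd8+/+ and 42.0, 43.0 and 42.5 CPM in Chd8+/-. All Chd8+/- libraries lay above all Chd8+/+ libraries. The log2 difference was 0.17 (SE 0.04, 95% interval 0.08 to 0.26, a ratio of 1.124), with an adjusted p of 0.116 in edgeR and 0.0532 in DESeq2. Over the 15 alternatives it ran from 0.15 to 0.18.

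Bax was at 51.4, 54.3 and 49.2 CPM in Chd8+/+ and at 63.5, 53.9 and 57.9 CPM in Chd8+/-. The groups overlapped, because Chd8+/- replicate 2 lay below Chd8+/+ replicate 2. The log2 difference was 0.20 (SE 0.06, 95% interval 0.06 to 0.33, a ratio of 1.14), with an adjusted p of 0.154 in edgeR, 0.0497 in DESeq2 and 0.0183 when all genes with at least 1 count were tested. It ran from 0.13 without Chd8+/- replicate 1 to 0.25 without Chd8+/- replicate 2.

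Trp53 and Mdm2 went in opposite directions. Trp53 was at 32.6, 33.1 and 32.2 CPM in Chd8+/+ and at 31.2, 30.0 and 27.6 CPM in Chd8+/-, with no overlap, and Mdm2 at 31.9, 30.9 and 33.4 CPM against 33.9, 35.7 and 34.1 CPM, also with no overlap. The log2 difference of Trp53 was -0.13 (SE 0.06, 95% interval -0.25 to -0.00215, adjusted p = 0.275) and that of Mdm2 0.12 (SE 0.05, 95% interval 0.01 to 0.23, adjusted p = 0.242), both in edgeR. Without P5 Chd8+/- replicate 3, the library that stood apart, Trp53 was at -0.07 (adjusted p = 0.600), Mdm2 at 0.14, Cdkn1a at 0.18 (adjusted p = 0.208) and Bax at 0.21 (adjusted p = 0.231).

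The other 6 members did not differ at an unadjusted p of 0.05 at P5. Zmat3 stood at 75.7 ± 1.53 CPM in Chd8+/+ and 78.9 ± 2.15 CPM in Chd8+/- (log2 0.07, adjusted p = 0.303 in edgeR), and was at 0.14 (adjusted p = 0.155) when offsets for gene length were fitted. Bbc3 was at 30.0 ± 1.54 and 30.8 ± 2.17 CPM (log2 0.06), Phlda3 at 12.3 ± 0.570 and 12.7 ± 0.306 CPM (log2 0.07), and Sesn2 at 13.3 ± 1.30 and 13.97 ± 1.09 CPM (log2 0.08, and 0.01 without Chd8+/+ replicate 3 or 0.13 without Chd8+/+ replicate 1). Ccng1 was at 59.1 ± 1.72 and 56.9 ± 2.90 CPM (log2 -0.04), and Pmaip1 at 1.46 ± 0.132 and 1.44 ± 0.0596 CPM (log2 0.00). All of these are means ± SD over 3 libraries, and for each of the 6 the groups overlapped.

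**Figure D4:**
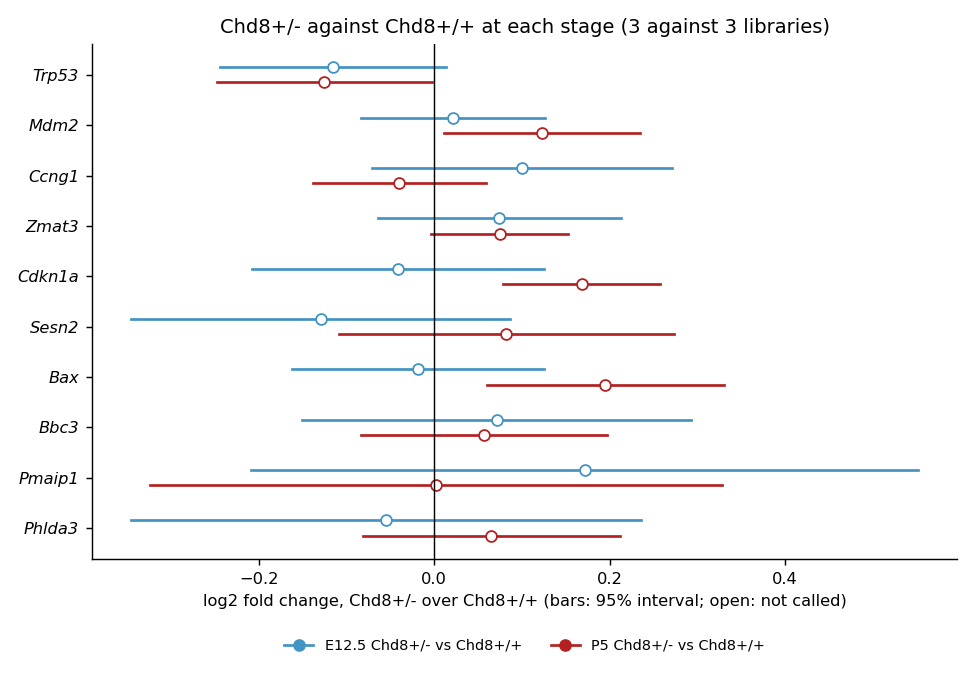
Log2 difference between Chd8+/- and Chd8+/+ of each gene at E12.5 and at P5, as points with 95% intervals from edgeR, with 0 as no difference. At E12.5 all intervals include 0, and at P5 those of Cdkn1a, Bax and Mdm2 lie above 0 and that of Trp53 just below it, none with an adjusted p under 0.05.

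The summed levels of 4 marker lists did not overlap between genotypes at P5, although edgeR called 0 markers of any list, and 14.8% of single genes lay lower without overlap. Striatal medium spiny neuron markers summed to 199.7 to 217.9 CPM in Chd8+/+ and 143 to 176 CPM in Chd8+/- (5 of 5 lower, 5 with an unadjusted p under 0.05), choroid plexus markers to 439.8 to 571.5 CPM and 320.4 to 378.9 CPM (5 of 5 lower, 5 under that p), and endothelial markers to 157.2 to 176.6 CPM and 145.4 to 157.1 CPM (4 of 5 lower, 4 under that p). GABAergic interneuron markers summed to 570.1 to 582.8 CPM in Chd8+/+ and 477 to 548 CPM in Chd8+/- (6 of 6 lower, 3 under that p). Neural progenitor markers, whose sums overlapped, summed to 205.6 to 228.2 CPM and 198.3 to 207.8 CPM (5 of 6 lower, 4 under that p). None of these markers was at 0 in every library, and their part in the Cdkn1a, Bax, Mdm2 and Trp53 values was not tested.

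The test of whether the genotype difference itself changed with stage called 0 of the 10 members and 0% of the 19676 genes in edgeR, and 1 member, higher, had an unadjusted p under 0.05, against 10% of all genes, 3.15% higher. DESeq2 called 0 members and 0.0938% of the genes it tested, and it gave no adjusted p for Bbc3, Pmaip1, Sesn2 and Phlda3. Cdkn1a had the smallest p of the members, its Chd8+/- minus Chd8+/+ difference being 0.19 higher on the log2 scale at P5 than at E12.5 (SE 0.08, 95% interval 0.01 to 0.37, adjusted p = 0.475). Bax was second, at 0.20 (adjusted p = 0.503). The median over the members was 0.03, against -0.02 for all genes tested.

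The wider p53 pathway was read from 52 other genes, of which 49 could be tested between stages. In Chd8+/+, 43 of the 49 passed the test, 10 higher and 33 lower at P5, where 83.1% of all genes passed, 41.4% higher and 41.7% lower. The median log2 difference of the 49 was -0.84, against -0.02 for all genes tested. Upstream regulators of p53 had 15 of 16 lower and 0 higher, among them the damage kinase Chek1 (log2 -4.18). Growth arrest targets had 4 higher and 3 lower of 7, with Plk2 (2.04) and Rprm (1.199) higher and Btg2 (-3.06) lower. Apoptosis targets had 3 higher and 6 lower of 11, with Perp (2.45) and Fas (2.36) higher and Trp53inp1 (-2.30) lower. Metabolism and redox targets had 1 higher and 3 lower of 6, the glutaminase gene Gls2 (1.91) being the one that rose, DNA repair and nucleotide supply targets had 1 higher and 3 lower of 5, and both remaining targets tested were lower. The p53 family gene Trp63 was higher (2.83), on counts of 1, 8 and 1 at E12.5 and 22, 21 and 30 at P5, and was at 4.503 without E12.5 Chd8+/+ replicate 2. In Chd8+/- its difference was not called (0.48, adjusted p = 0.503), on counts of 5, 34 and 3 at E12.5 and 14, 20 and 24 at P5. In edgeR each of these named genes had an adjusted p of at most that of Trp63 in Chd8+/+ (0.00535). Fas also rested on few counts, 5, 3 and 4 at E12.5 and 23, 15 and 25 at P5.

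All 12 cell cycle genes that p53 lowers through p21 and the DREAM complex were lower at P5 in Chd8+/+, where 41.7% of all genes tested were called lower, with log2 differences of -4.87 to -3.71. Among the targets, Gtse1 (-3.96), a mitotic gene named here after its value was seen, lay inside that range. The lowest were Bub1 (-4.87), Ccnb1 (-4.57), Top2a (-4.51), Mki67 (-4.38) and Birc5 (-4.09), genes of the spindle checkpoint, mitotic entry, chromosome untangling, proliferating cells and cytokinesis. The summed progenitor markers given above were lower beside them, and their part was not tested. In Chd8+/- all 12 were lower as well (median -4.01), led by Bub1 (-4.86), Top2a (-4.76), Ccnb1 (-4.72), Mki67 (-4.57) and Cdc20 (-4.16). Of the other pathway genes 9 were higher and 33 lower of 49 in Chd8+/-, where 82.9% of all genes were called, 41.3% higher and 41.6% lower, with Chek1 (-4.21) lowest and Perp (2.13), Gls2 (1.91), Plk2 (1.82), Rprm (1.25), Fas (1.18) and Bid (1.14) highest. The Fas call in Chd8+/- was lost in DESeq2 (adjusted p = 0.0701), and also when edgeR was run without replicate 1 (0.0724) or replicate 3 (0.0713) of E12.5 Chd8+/-, or replicate 2 (0.0503) or replicate 3 (0.0513) of P5 Chd8+/-. The Fas difference was 1.89 when replicate 2 of E12.5 Chd8+/- was left out.

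**Figure D5:**
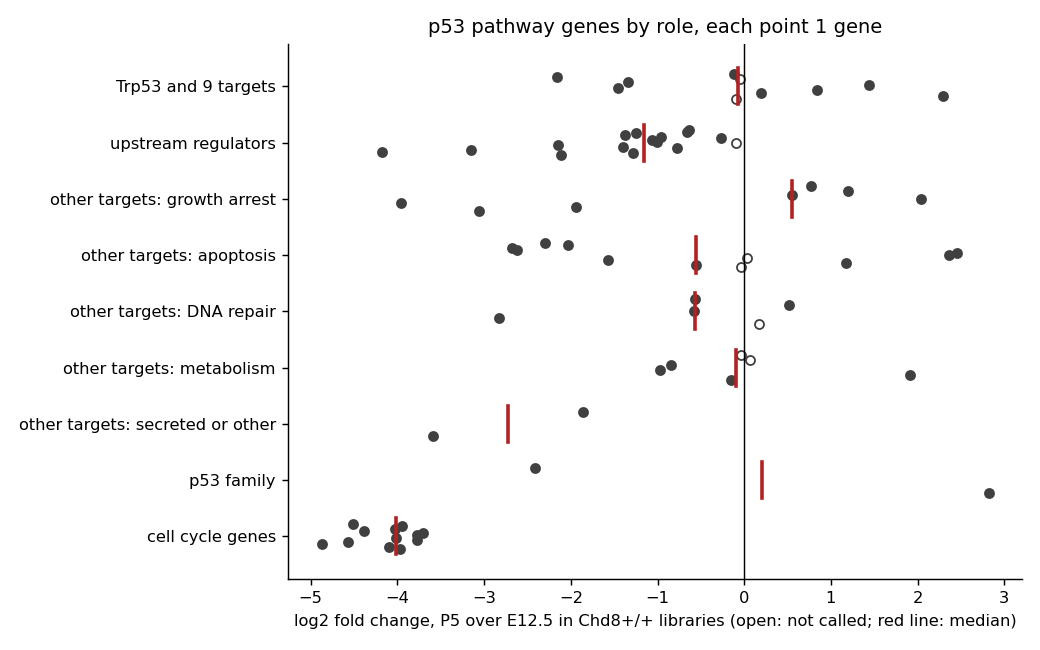
Log2 difference from E12.5 to P5 in Chd8+/+ of the genes of each p53 pathway list, and of the 10 members, 1 point per gene, open where not called, with the median of each list as a red line. Cell cycle genes lie between -4.87 and -3.71, upstream regulators below 0, and the targets on both sides of 0.

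Between genotypes edgeR called none of these genes at either stage, with 0 of 47 other pathway genes and 0 of 12 cell cycle genes at E12.5 and 0 of 49 and 0 of 12 at P5. At E12.5 an unadjusted p under 0.05 was reached by 0 of the 47 and by 1 of the 12, Birc5 (log2 -0.10, SE 0.04, adjusted p = 0.942), against 5.15% of all genes, and DESeq2 called 0 of either list. The next in order of p were Btg2 (0.08) and Trp53inp1 (0.11), both with an adjusted p of 0.942. At P5, 12 of the 49 and 1 of the 12 had an unadjusted p under 0.05, where 17.8% of all genes did, and the medians were 0.00 and -0.06.

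The 3 pathway genes with the smallest p at P5 were also the 3 that DESeq2 called. Hipk2, a kinase that phosphorylates p53, was at 37.5, 38.1 and 32.4 CPM in Chd8+/+ and 25.0, 28.4 and 31.2 CPM in Chd8+/- (log2 -0.34, SE 0.08, adjusted p = 0.116 in edgeR and 0.00458 in DESeq2). Trp53bp1, a DNA break repair protein that binds p53, was at 224.6, 228.7 and 217.9 CPM in Chd8+/+ and 198, 202 and 200.7 CPM in Chd8+/- (log2 -0.14, SE 0.04, adjusted p = 0.116 and 0.0127), and its difference was -0.06 (adjusted p = 0.498) with offsets for gene length. Aen, an apoptosis nuclease gene that p53 induces, was at 61.2, 64.1 and 57.6 CPM in Chd8+/+ and 71.9, 65.3 and 66.9 CPM in Chd8+/- (log2 0.17, SE 0.05, adjusted p = 0.136 and 0.0475). The genotypes did not overlap for any of these 3 genes, which were picked for their p, and 23.4% of all genes did not overlap. DESeq2 called 3 of the 49, where it called 5.28% of the genes it tested. In the test of the difference between stages, Btg2 (-0.27), Hipk2 (-0.47) and Birc5 (0.24) had the smallest p of the pathway genes, with adjusted p of 0.362, 0.390 and 0.405 in edgeR.

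Among all 19676 genes in the 12 libraries, the profile most like that of Trp53 was that of the histone deacetylase gene Hdac1, with a root mean square difference of 0.0606 in centred log2 CPM. Supt16 (0.0694), Ints8 (0.0729), Vangl2 (0.0745) and Ptma (0.0748) followed. The nearest member to Trp53 was Mdm2, at 0.399 and in place 1400. For Cdkn1a the nearest were Sdccag8 (0.0471), Parp6 (0.0535), Stk25 (0.0539), BC037034 (0.0569) and Trim62 (0.0570), and the nearest member was Phlda3, at 0.250 and in place 3030. The measure is dominated by the difference between stages, which most genes share, and is a description over libraries of 4 groups.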

How the data were processed

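Raw counts per gene were deposited by the authors as 1 table per stage. According to the study's methods and processing notes, paired-end reads from stranded dUTP libraries were checked with FastQC 0.11.2, trimmed with Trim Galore 0.4.1, aligned to GRCm38.p4 (mm10) with TopHat2 2.1.0 and counted with featureCounts 1.5.0. The P5 header names Ensembl release 82, counts fragments and sets no strand option, and the E12.5 command is not given in the sources used here, but no member shares exon bases with another gene. Among the named pathway genes, Bid shares 17.7% of its exon bases with Bcl2l13 and Trp53bp1 15.0% with Tubgcp4, both on the opposite strand. Sequencing runs of a library were summed, since they differed little beyond sampling noise (chi-square per degree of freedom 1.18 to 1.51, against 6.58 to 45.4 between libraries of a group).

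Genes passing filterByExpr were tested with edgeR 4.0.16 (R 4.3.3, TMM scaling, quasi-likelihood, Benjamini-Hochberg over all genes tested, threshold 0.05). Genotypes were compared within a stage on its 6 libraries, and stages and the interaction in 1 model of the 12 libraries. CPM used 12-library TMM sizes, and RPKM merged exon length. Alternatives were DESeq2 1.42.0, RLE and upper quartile scaling, 2 other filters (at least 1 count, at least 1 CPM in 3 libraries), gene length offsets, the replicate number as a block, all 12 libraries in 1 model, and each library left out. A term for Xist above 100 CPM was added after seeing the data. Named genes were the 10 members, Chd8, the other pathway genes with the 6 highest and 6 lowest called differences per stage comparison or the 3 smallest p per genotype comparison and interaction, and the 5 profiles most like those of Trp53 and Cdkn1a. Btg2 and Trp53inp1 in the stage comparison were chosen after their values were seen. Not tested in any comparison were Cdkn2a, Sco2 and Gdf15, and Fas and Trp63 were not tested between genotypes at E12.5. A further marker of the neocortex list is not reported here. Members and lists were chosen with earlier results of these data known. The test was checked on simulated counts. Scripts ran in Python 3.11.15 with pandas 2.3.3, numpy 2.4.6 and matplotlib 3.10.9.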

Additional observations from a re-analysis of the deposited data

How the results depend on the processing

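Of the member differences under the alternatives, 145 of 150 kept direction and side of the threshold for genotype at E12.5, 142 of 150 at P5, 167 of 180 between stages in Chd8+/+, 169 of 180 in Chd8+/- and 184 of 200 in the interaction, and in none of these alternatives did Trp53, Mdm2, Pmaip1, Bbc3, Phlda3 or Cdkn1a lose a stage call. At P5 the number of members called between genotypes went from 0 to 1 with DESeq2 and to 1 with all genes of at least 1 count, in both cases Bax, the other pathway genes called from 0 to 3 and to 3, and the cell cycle genes called from 0 to 1 with the latter and to 0 to 1 when single libraries were left out (1 without P5 Chd8+/- replicate 2). Over all genes, the P5 count went from 1 to 995 with all genes of at least 1 count, 653 with DESeq2 and 327 without P5 Chd8+/- replicate 2, the E12.5 count from 1 to 13 and 5 under the first pair of these, and the interaction count from 0 to 17 and 8. The cause was not tested.

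Directions turned only in differences that were not called. The interaction of Zmat3 was 0.00504 with upper quartile scaling and 0.0698 with length offsets, that of Trp53 0.0108 with length offsets, and the P5 genotype difference of Pmaip1 -0.00831 with length offsets and -0.0138 with all 12 libraries in 1 model. With single libraries left out, the E12.5 genotype difference ran from -0.0635 to 0.0266 for Bax, -0.0923 to 0.0132 for Cdkn1a and -0.151 to 0.0235 for Phlda3. At P5 it ran from -0.00252 to 0.102 for Bbc3, -0.0625 to 0.00152 for Ccng1 and -0.0685 to 0.0623 for Pmaip1. The stage difference ran from -0.130 to 0.0261 for Sesn2 in Chd8+/+ and -0.0229 to 0.106 for Ccng1 in Chd8+/-, and the interaction from -0.0875 to 0.0475 for Bbc3, -0.0755 to 0.0579 for Trp53 and -0.0785 to 0.0517 for Zmat3.

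At E12.5 the replicate numbers showed no pairing of the libraries, since same-numbered deviations correlated at -0.30, -0.13 and -0.15 between genotypes. At P5 these correlations were 0.25, 0.11 and 0.03. There 2 of the 3 Chd8+/- libraries correlated best with the Chd8+/+ library of their own number, so pairing at P5 is not settled. With the number as a replicate block, no call of a member changed, and all genes called numbered 0 at E12.5, 4 at P5, 16242 and 16181 between stages and 0 in the interaction. The Chd8 call at E12.5 was lost under the block (-0.51, adjusted p = 0.346) and with the term for Xist (-0.51, adjusted p = 0.0527). The median of all genes between stages, -0.02 in Chd8+/+ and -0.00462 in Chd8+/-, was 0.02 and 0.04 with RLE scaling and 0.02 and 0.05 with upper quartile scaling. With 3 libraries a group, the genotype intervals of the members above limit what could be seen.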
